A study of Mus musculus with 16 samples.

Results

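The genes of the multiligand endocytic receptor machinery were followed through the jejunal and ileal epithelium of mice before and after weaning. The set held 7 genes, Cubn, Amn, Dab2, Lrp2, Mamdc4, Lrpap1 and Clcn5, of the 24421 genes in each count file. They were picked by name and not by their counts, although earlier results of these data were known when they were picked. All 7 were among the 13429 genes that passed the filter on low counts.

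Cubilin (Cubn) is a large peripheral membrane protein that binds many luminal proteins, among them the complex of vitamin B12 with intrinsic factor. It has no membrane anchor of its own and reaches the apical surface with amnionless (Amn), a transmembrane partner. Megalin (Lrp2) is a giant member of the lipoprotein receptor family that takes up many of the same ligands, and Lrpap1 encodes its chaperone in the secretory pathway. Dab2 is the adaptor that couples the cytoplasmic tails of such receptors to clathrin. Mamdc4 encodes endotubin, a membrane protein of apical endosomes in suckling-type enterocytes, and Clcn5 encodes an endosomal chloride/proton exchanger that aids endosome acidification. In the kidney proximal tubule the same receptors reclaim filtered proteins, and in suckling rodents enterocytes that take up whole milk proteins disappear around weaning.

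Bulk RNA-seq counts were analysed for wild-type C57BL6/J mice at postnatal day 6 (P6, suckling) and day 36 (P36, weaned), with 4 mice of 2 females and 2 males at each age. A jejunal and an ileal segment of each mouse were treated with EDTA, which frees the epithelial sheet, so that 16 libraries fell into 4 groups of 4. No group carried a transgene, a deletion or a treatment, and each library was a whole epithelial fraction of mixed cell types. In such bulk samples fewer expressing cells and less RNA per cell cannot be told apart.

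Libraries held 12159237 to 25947276 counts each. Epcam, an epithelial gene, was read at 1137 to 2230 CPM (counts scaled to library size with TMM factors) in all libraries, and the ileal gene Fabp6 lay between 3727 and 9114 CPM in the P36 ileum against at most 8.21 CPM in either jejunum. Replicates 1 to 4 of the P6 ileum read 58.2, 10.9, 74.3 and 6.13 CPM of Fabp6, all above the P6 jejunum at 0 to 0.893 CPM. Replicate 4 lay within the range of the P36 jejunum, 1.71 to 8.21 CPM. In P6 ileum replicate 4 the deviations of genes from their group median followed the GC content of the transcript, with a Spearman's rho of -0.82 across 8663 genes against -0.31 to 0.59 in the other libraries. Its CPM divided by the mean of the other 3 P6 ileum libraries was 2.73 for Lrp2, 1.75 for Clcn5, 1.59 for Cubn and 1.47 for Dab2, whose transcripts have 44.7 to 49.1% GC. The ratio was 0.460 for Lrpap1 (52.8% GC), 0.137 for Mamdc4 (58.1% GC) and 0.138 for Amn (62.9% GC). P36 ileum replicate 3 had the lowest levels of the enterocyte genes Fabp2, Krt20 and Vil1 in its group and the highest sum of the crypt genes Lgr5, Olfm4 and Mki67. Many of the results that rest on these libraries, though not all, are given with and without them. Of the markers of other cells, summed T cell genes (6 genes) reached 23.8 CPM at most and endothelial genes (5 genes) 38.6 CPM. Smooth muscle and fibroblast genes (10 genes) lay between 6.13 and 62.5 CPM except in P6 ileum replicate 2, at 426 CPM.

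**Figure D1:**
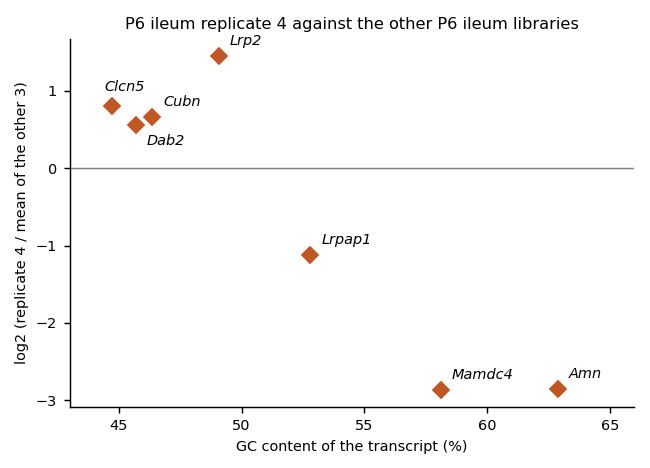
The vertical axis is the log2 of the CPM in P6 ileum replicate 4 over the mean of the other 3 P6 ileum libraries, and the horizontal axis is the GC content of the longest transcript in percent. Each diamond is a gene: the 4 genes under 50% GC lie above 0, and Lrpap1, Mamdc4 and Amn lie below it.

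In the mm10 annotation used for counting, Cubn spans chr2:13276338-13491876 on the minus strand, with 67 exon blocks of 11325 bases in all. Lrp2 lies on the same chromosome at chr2:69424335-69586067 (minus strand, 79 exon blocks, 15467 bases) and so does the compact Mamdc4 at chr2:25563115-25571316 (minus strand, 29 exon blocks, 3990 bases). Amn, with 1685 exonic bases in 12 blocks, is at chr12:111271111-111276426 (plus strand), Dab2 at chr15:6299789-6440709 (plus strand), Lrpap1 at chr5:35091506-35105697 (minus strand) and Clcn5 at chrX:7158412-7319358 (minus strand). No other gene of the annotation shared exonic bases with any of the 7, so that no read had to be divided between overlapping genes. The 250 bases before the start of transcription are shown for the 3 genes with the deepest fall with age (Mamdc4, Dab2 and Lrp2) and for the receptor pair that remained at P36 (Cubn and Amn), from RefSeq on GRCm38.p6, 5′ to 3′, with motif matches in capitals.
Mamdc4, chr2:25571317-25571566, minus strand: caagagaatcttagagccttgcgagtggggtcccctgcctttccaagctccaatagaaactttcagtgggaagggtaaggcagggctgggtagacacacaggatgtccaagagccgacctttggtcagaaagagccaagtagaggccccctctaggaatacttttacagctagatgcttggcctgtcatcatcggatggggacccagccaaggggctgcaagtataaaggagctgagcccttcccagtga
Dab2, chr15:6299539-6299788, plus strand: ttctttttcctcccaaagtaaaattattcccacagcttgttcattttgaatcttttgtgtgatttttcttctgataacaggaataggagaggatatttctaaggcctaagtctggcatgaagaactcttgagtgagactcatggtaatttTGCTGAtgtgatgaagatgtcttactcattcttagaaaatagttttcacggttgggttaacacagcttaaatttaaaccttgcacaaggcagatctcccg
Lrp2, chr2:69586030-69586279, minus strand: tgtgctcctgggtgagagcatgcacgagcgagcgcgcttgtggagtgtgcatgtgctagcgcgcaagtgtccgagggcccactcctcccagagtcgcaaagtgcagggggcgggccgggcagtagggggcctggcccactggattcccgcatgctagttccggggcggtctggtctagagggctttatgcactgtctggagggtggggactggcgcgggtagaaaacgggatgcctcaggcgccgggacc
Cubn, chr2:13491877-13492126, minus strand: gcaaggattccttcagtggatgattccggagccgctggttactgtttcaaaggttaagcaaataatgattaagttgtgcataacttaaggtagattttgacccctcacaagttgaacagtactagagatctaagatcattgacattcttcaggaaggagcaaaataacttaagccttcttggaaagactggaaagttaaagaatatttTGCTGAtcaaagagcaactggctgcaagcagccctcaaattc
Amn, chr12:111270846-111271095, plus strand: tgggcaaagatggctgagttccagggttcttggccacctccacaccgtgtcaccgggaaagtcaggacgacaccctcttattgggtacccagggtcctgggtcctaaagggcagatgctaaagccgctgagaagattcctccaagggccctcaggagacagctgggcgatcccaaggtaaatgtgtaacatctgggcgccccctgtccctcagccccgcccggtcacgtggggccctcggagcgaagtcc

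Motifs were searched on both strands. For GATA factors the letters were AGATAA, for HNF1 GTTAAT, for HNF4 CAAAGTCCA, for PRDM1 AGNGAAAG and for MAF TGCTGA. For CDX2 they were TTTATTG or, as the second form, TTTATGG. In these 5 windows the matches were TGCTGA at -100 in Dab2 and at -42 in Cubn, counted from the start of transcription. TGCTGA was present in 16.1% of all 32851 RefSeq windows of this length, AGATAA in 9.99%, AGNGAAAG in 7.30%, either CDX2 motif in 6.51%, GTTAAT in 6.43% and CAAAGTCCA in 0.384%. The RefSeq start of Lrp2 lies inside the gene as annotated in the count files, so its window overlaps that gene. For Amn the RefSeq start lies slightly upstream of the start in the count files. The Dab2 window is the upstream of its 2 RefSeq starts and the start used in the count files. The window of the other start, at chr15:6386498-6386747, held GTTAAT at -65, while the Lrpap1 window and both Clcn5 windows held no match. The windows also differed in base composition, with 2 CpG dinucleotides each in Dab2 and Cubn and 3 in Mamdc4 against 11 in Amn and 18 in Lrp2.

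All 7 genes were lower at P36 than at P6, but by very unequal amounts. The endosomal protein gene Mamdc4, the adaptor Dab2 and the receptor Lrp2 fell between 131-fold and 3166-fold and were near 0 in the weaned epithelium of both regions. Cubn, Amn and the chaperone Lrpap1 fell between 2.16-fold and 4.51-fold, and Clcn5 between 5.25-fold and 10.3-fold. Cubn was thus still read at 64.0 to 1019 CPM and Amn at 28.8 to 107 CPM at P36, when the adaptor Dab2 was read at 0.471 to 2.53 CPM.

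Of the receptors, Cubn was at 722, 959, 834 and 872 CPM in replicates 1 to 4 of the P6 jejunum and at 320.0, 179.8, 269 and 223 CPM in those of the P36 jejunum. In the ileum it was at 1974, 1763, 2171 and 3122 CPM at P6 and at 1019, 457, 64.0 and 462 CPM at P36. The ages did not overlap in either region, although the P36 ileum libraries differed widely among themselves. The log2 fold change of P36 over P6 was -1.77 for the jejunum (SE 0.50, adjusted p = 0.00791) and -2.17 for the ileum (SE 0.51, adjusted p = 0.00195, edgeR quasi-likelihood test). Both calls held in each of the 18 alternative settings of the fit. The ileal value moved to -2.78 without P36 ileum replicate 1 (adjusted p = 0.000294) and to -1.80 without P36 ileum replicate 3 (adjusted p = 0.000182).

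Lrp2 was far lower than Cubn from the start, at 19.2, 29.8, 36.3 and 34.5 CPM in the P6 jejunum. The P6 ileum gave 96.4, 81.2, 60.6 and 217 CPM. At P36 each library held between 1 and 9 Lrp2 counts, 18 in all jejunal and 16 in all ileal libraries, against 2518 and 9379 counts at P6. Lrp2 therefore entered the test through its P6 libraries, and its fitted changes of -7.03 (SE 0.57, adjusted p = 4.22e-08) and -8.93 (SE 0.60, adjusted p = 5.55e-09) on the log2 scale depend on the prior count. The ileal one was -9.85 without P36 ileum replicate 4 (adjusted p = 1.48e-08). No P36 library came near any P6 library.

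Amn, the membrane partner of cubilin, was at 248, 191, 212 and 163 CPM in the jejunum of P6 mice and at 107, 72.0, 101 and 87.2 CPM in that of P36 mice. Its jejunal log2 fold change of -1.15 (SE 0.46) was at the edge of the threshold, with an adjusted p of 0.0486. The jejunal libraries of the ages did not overlap, yet the call was kept in 5 of the 18 alternatives and in none of the 8 that left out 1 library, where the adjusted p lay between 0.0554 and 0.113. In the P6 ileum Amn was at 300.1, 257 and 359.7 CPM in replicates 1 to 3 and at 42.3 CPM in replicate 4, the library with the GC trend. The P36 ileum gave 98.9, 47.2, 28.8 and 62.0 CPM, a range that only replicate 4 of the P6 ileum entered. The ileal log2 fold change was -2.02 (SE 0.47, adjusted p = 0.00192) and was -2.37 without that library (adjusted p = 7.75e-06).

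Lrpap1, which encodes the receptor-associated protein that escorts megalin through the secretory pathway, had the smallest estimated change with age. It was at 45.7, 42.1, 49.3 and 39.4 CPM in the P6 jejunum, and at 21.0, 18.1, 23.8 and 18.5 CPM in the P36 jejunum. In the P6 ileum it was at 81.4, 67.4, 78.4 and 34.8 CPM, the last being replicate 4. All 4 P36 ileum libraries lay lower, between 21.8 and 28.8 CPM. The log2 fold changes were -1.11 for the jejunum (SE 0.21, adjusted p = 0.000395) and -1.36 for the ileum (SE 0.21, adjusted p = 5.76e-05). The chaperone gene thus remained at P36 while the counts of Lrp2 were near 0. Lrp1, of the same lipoprotein receptor family, still averaged 281 CPM in the P36 jejunum and 299 CPM in the P36 ileum.

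Dab2, the clathrin adaptor, had the smallest spread of the set relative to its mean in the P6 jejunum, at 788, 832, 797 and 812 CPM (SD 19.5, n = 4). In the P6 ileum it was at 1116, 1056, 1098 and 1605 CPM. At P36 the 4 jejunal libraries gave 0.471, 0.574, 0.988 and 2.34 CPM and the 4 ileal ones 1.60, 1.30, 0.653 and 2.53 CPM. These P36 values rested on 8 to 44 counts per library against at least 15181 at P6. The log2 fold changes were -9.53 for the jejunum (SE 0.51, adjusted p = 4.26e-10) and -9.69 for the ileum (SE 0.51, adjusted p = 4.92e-10). Without P36 jejunum replicate 4 the jejunal value was -10.19 (adjusted p = 7.61e-10).

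Mamdc4 was the most abundant of the 7 and changed most. It was at 4936, 4649.9, 5464 and 4213 CPM in the jejunum at P6. Replicates 1 to 3 of the P6 ileum read 7992, 7876 and 10139 CPM, where it took 0.864 to 1.12% of all counts. Replicate 4 of the P6 ileum read 1189 CPM. The P36 libraries held 2.47, 1.41, 5.12 and 2.34 CPM (jejunum) and 3.15, 2.32, 0.490 and 2.77 CPM (ileum), or 12 to 114 counts each. Even replicate 4, the lowest P6 library, lay far above every P36 library. The log2 fold change was -10.72 for the jejunum (SE 0.81, adjusted p = 2.07e-08) and -11.63 for the ileum (SE 0.84, adjusted p = 1.37e-08).

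Clcn5, the endosomal exchanger, took a middle course. It was at 226, 177, 225 and 156 CPM in the jejunum of P6 mice and at 41.5, 45.2, 28.1 and 34.5 CPM in that of P36 mice. The ileum gave 268, 201, 205 and 393 CPM at P6 and 39.4, 24.6, 16.7 and 23.3 CPM at P36. Its log2 fold changes were -2.39 (SE 0.27, adjusted p = 2.33e-06) and -3.36 (SE 0.29, adjusted p = 8.74e-08), with no overlap between the ages.

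**Figure D2:**
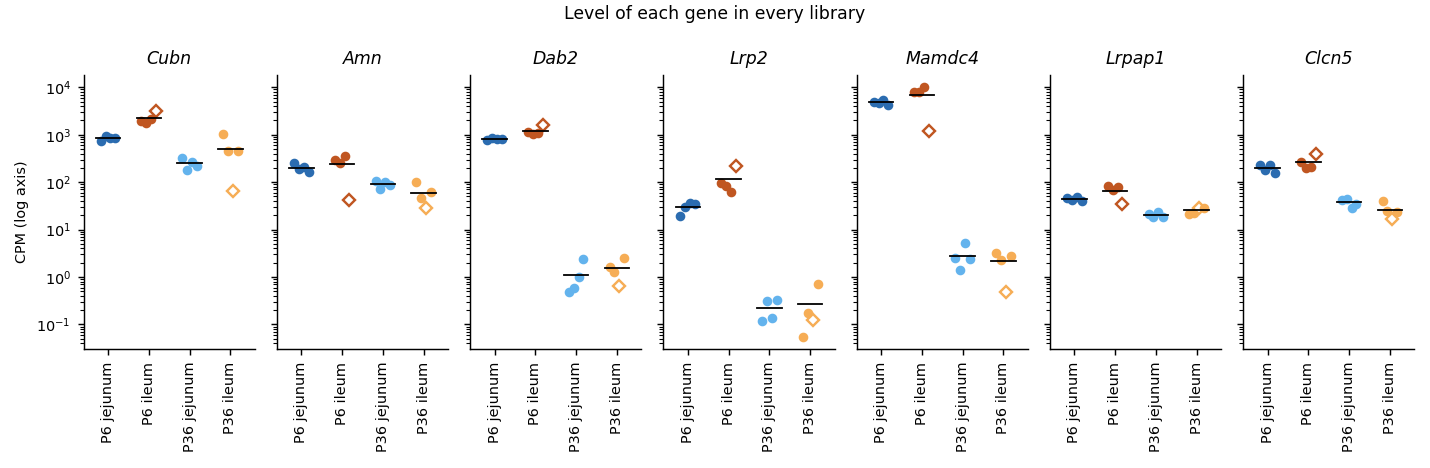
Each panel is a gene, the vertical axis is CPM on a log axis, each point is a library and the horizontal bar is the mean of 4 libraries; open diamonds are P6 ileum replicate 4 and P36 ileum replicate 3. Dab2, Lrp2 and Mamdc4 drop to between 0.0553 and 5.12 CPM at P36, while Cubn, Amn, Lrpap1 and Clcn5 stay between 16.7 and 1019 CPM.

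As a set, 7 of 7 genes were called lower at P36 among jejunal and 7 of 7 among ileal libraries at an adjusted p below 0.05. Over all tested genes 51.6% were called with jejunal and 55.7% with ileal libraries, and 26.9% and 30.1% were called in this direction. With an absolute log2 fold change above 2 also required, 4 genes remained in the jejunum (Dab2, Lrp2, Mamdc4 and Clcn5) and 6 in the ileum (all but Lrpap1), where 8.59% and 10.0% of tested genes passed this rule in the same direction. Without P36 ileum replicate 3 the ileal changes of Cubn (-1.80) and Amn (-1.78) did not pass this rule. That of Cubn (-1.97) also failed it without P6 ileum replicate 4. All 7 genes were without overlap between the ages for jejunal libraries and 6 for ileal ones, the exception being Amn, beside 63.8% and 44.4% of tested genes. The median log2 fold change of the 7 was -2.39 (jejunum) and -3.36 (ileum), against -0.01 and -0.03 over all tested genes. The summed epithelial marker list (7 genes) lay at 11594 to 23181 CPM at P36 and at 4795 to 10972 CPM at P6, and secretory epithelial genes (5 genes) at 5247 to 13209 and 455 to 1462 CPM. The macrophage list (8 genes), nearly all of it Csf1r, moved the other way, from 169 to 514 CPM at P6 to 5.25 to 17.3 CPM at P36. Not every gene followed its sum. Krt8 and Krt20 were higher in every P36 than in every P6 library, as were Vil1 and Fabp2 within the jejunum. Cdh1 lay at 792 to 867 CPM at P6 and at 801 to 1064 CPM at P36, and Epcam also overlapped. Krt18 fell in the jejunum, from between 322 and 338 CPM to between 136 and 160 CPM. Much of the secretory rise was Lyz1, at 6.03 to 20.3 CPM at P6 and 2854 to 10235 CPM at P36, while Chga overlapped between the ages. The part of these marker levels in the falls was not tested.

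**Figure D3:**
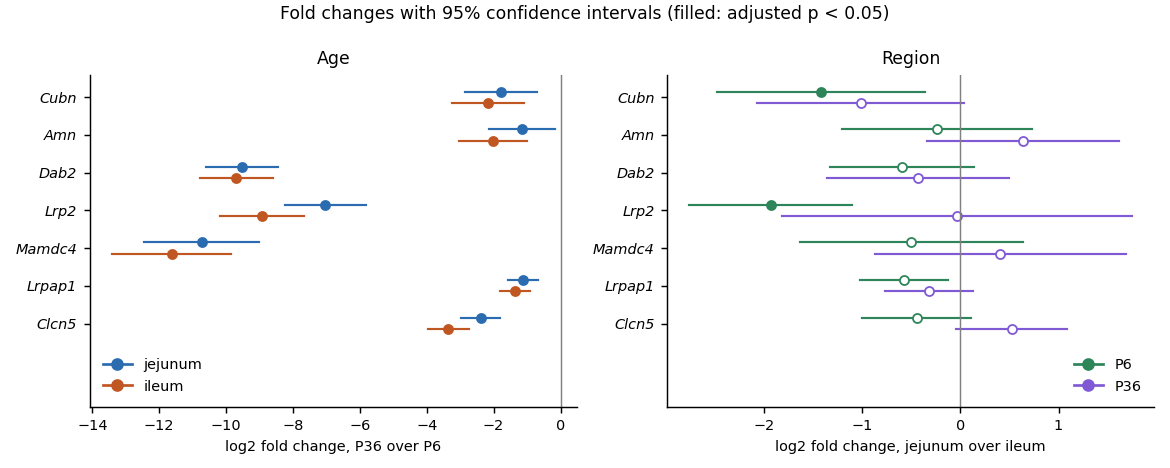
Points are log2 fold changes with 95% confidence intervals from the edgeR fit, for P36 over P6 in each region (left) and for jejunum over ileum at each age (right); filled points have an adjusted p below 0.05. All 14 points on the left are filled and negative, and those of Dab2, Lrp2 and Mamdc4 lie at -7.03 or below; on the right only Cubn and Lrp2 at P6 are filled.

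Between the regions at P6, both receptors were higher in the ileum. Cubn averaged 2258 ± 600.0 CPM (SD, n = 4) in ileal and 847 ± 98.3 CPM in jejunal P6 libraries, and Lrp2 114 ± 70.3 and 29.9 ± 7.70 CPM. The log2 fold change of jejunum over ileum was -1.93 for Lrp2 (SE 0.39, adjusted p = 0.00180) and -1.41 for Cubn (SE 0.50, adjusted p = 0.0478). Lrp2 was called in 20 of 20 alternatives, with the mouse as a replicate block at an adjusted p of 0.00229. Without P6 ileum replicate 4, in which Lrp2 read 217 CPM, its difference was -1.40 (adjusted p = 0.00149). The call of Cubn did not hold under the replicate block (log2 fold change -1.39, adjusted p = 0.0692) nor with any single library of P6 left out (adjusted p from 0.0528 to 0.111), and was kept in 8 of 20 alternatives. All 4 ileal values of Cubn still lay above all 4 jejunal ones, as they did in each of the 4 mice.

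The other 5 genes were not called between the regions at P6. Dab2 had a log2 fold change of -0.59 (95% confidence interval -1.33 to 0.14, adjusted p = 0.227), although its regions did not overlap. Lrpap1 stood at -0.57 (adjusted p = 0.0568), Mamdc4 at -0.50 (adjusted p = 0.525), Clcn5 at -0.44 (adjusted p = 0.229) and Amn at -0.24 (adjusted p = 0.742). These values depended on replicate 4 of the P6 ileum, the only P6 ileum library in which Amn, Mamdc4 and Lrpap1 lay below the jejunum of the same mouse. Without it the 3 remaining ileal libraries lay above all 4 jejunal libraries for 6 of the 7 genes, all but Clcn5. The share of all tested genes without overlap was not counted for this comparison. The omission of replicate 4 brought Lrpap1 to -0.78 (adjusted p = 0.000342), Mamdc4 to -0.84 (adjusted p = 0.118) and Amn to -0.58 (adjusted p = 0.145). With P36 ileum replicate 3 left out as well, 5 genes were called between the P6 regions: Cubn, Amn, Lrp2, Mamdc4 and Lrpap1. A correction for GC content, chosen after seeing the data, called Cubn, Lrp2 and Lrpap1. Together with the replicate block it called Amn (-0.62, adjusted p = 0.0462), Lrp2 and Lrpap1, but not Cubn (-1.32, adjusted p = 0.0577). A fit on the 8 P6 libraries alone called Cubn, Lrp2 and Dab2. The share of all tested genes called was not counted under these alternatives.

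Counted together, 2 of 7 genes were called between the P6 regions, both higher in the ileum, or 1 of 7 under the replicate block. Of all tested genes 25.9% were called here and 14.8% were called higher in the ileum, and 6.50% were called with an absolute log2 fold change above 2, a rule that none of the 7 passed. The regions did not overlap for 3 genes (Cubn, Dab2 and Lrp2) and for 30.1% of tested genes. All 7 estimates pointed to the ileum, with a median log2 fold change of -0.57 against -0.05 over all tested genes. That of Amn turned to 0.07 with the mouse as a replicate block and to 0.01 without P6 ileum replicate 3.

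At P36 no gene of the set was called between the regions, and none had an unadjusted p below 0.05 in edgeR; DESeq2 also called 0. Of tested genes 16.1% were called at P36 and 3.60% with an absolute log2 fold change above 2, and 26.9% did not overlap between the regions, beside 0 of the 7. Cubn averaged 501 ± 393 CPM (SD, n = 4) in the P36 ileum and 248 ± 60.3 CPM in the P36 jejunum (log2 fold change -1.01, 95% confidence interval -2.06 to 0.04, adjusted p = 0.191). The result turned on P36 ileum replicate 3, at 64.0 CPM. Without it the ileal libraries lay at 457 to 1019 CPM, above all jejunal ones, and the log2 fold change was -1.38 (adjusted p = 0.00510). In that library Fabp2 was at 471 CPM against 1576 to 7270 CPM in the other 3 P36 ileum libraries, Krt20 at 992 against 1471 to 2959 CPM, and Vil1 at 1381 against 2318 to 4487 CPM. Epcam was also lowest there, at 1382 against 1576 to 2230 CPM. The other epithelial markers spread less over the P36 ileum, with Krt8 at 4812 to 6101, Krt18 at 241 to 354 and Cdh1 at 921 to 1064 CPM. The crypt genes Lgr5, Olfm4 and Mki67 summed to 1145 CPM in replicate 3. Replicate 1, with the highest Cubn in the group, had the highest Fabp2, Krt20 and Vil1 and a crypt sum of 571 CPM. Replicates 2 and 4 had nearly equal Cubn, at 457 and 462 CPM, with crypt sums of 858 and 483 CPM. Mki67 by itself was highest in replicate 2, at 383 CPM against 359 CPM in replicate 3. The part of these marker levels in the Cubn values was not tested.

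Amn and Clcn5 pointed the other way at P36, toward the jejunum. Amn averaged 92.0 ± 15.8 CPM in jejunal and 59.2 ± 29.7 CPM in ileal libraries of this age (log2 fold change 0.64, adjusted p = 0.404), and Clcn5 37.3 ± 7.58 and 26.0 ± 9.60 CPM (0.52, adjusted p = 0.208). Without P36 ileum replicate 1 the difference of Clcn5 was 0.80 (adjusted p = 0.0377). Without P36 ileum replicate 3 it was 0.36 (adjusted p = 0.469), and that of Amn was 0.41 (adjusted p = 0.688). Both genes were higher in the jejunum in 4 of 4 mice at P36, and higher in the ileum in 3 of 4 mice at P6. The remaining P36 differences were -0.43 for Dab2, 0.41 for Mamdc4, -0.32 for Lrpap1 and -0.03 for Lrp2, with adjusted p from 0.354 to 0.991. That of Mamdc4 was 0.05 without P36 ileum replicate 3. Dab2, Mamdc4 and Lrp2 rested on at most 232 counts in a whole group here, and their 95% confidence intervals were wide, from -1.36 to 0.50 for Dab2, from -0.87 to 1.68 for Mamdc4 and from -1.81 to 1.75 for Lrp2.

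**Figure D4:**
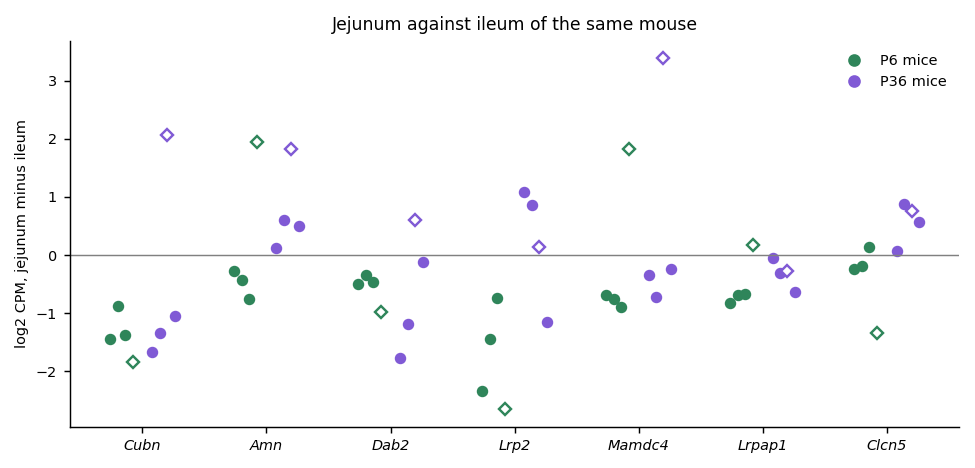
The vertical axis is the log2 CPM of the jejunum minus that of the ileum of the same mouse, for 4 P6 mice and 4 P36 mice per gene; values below 0 are higher in the ileum, and open diamonds are the mice of P6 ileum replicate 4 and P36 ileum replicate 3. Cubn, Dab2 and Lrp2 lie below 0 in 4 of 4 P6 mice, and Amn and Clcn5 lie above 0 in 4 of 4 P36 mice.

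A change of the regional difference with age was read from the interaction term, in which the regional log2 fold change of weaned mice is subtracted from that of suckling mice. No gene of the set passed, beside 8.69% of tested genes, and 1 of the 7 had an unadjusted p below 0.05. That gene was Clcn5 (interaction -0.97, SE 0.37, adjusted p = 0.126), and it was called in 3 of 27 alternatives, among them the one without P36 ileum replicate 1 (-1.24, adjusted p = 0.0309). Its interaction was -0.80 without P36 ileum replicate 3 (adjusted p = 0.196). Amn had an interaction of -0.87 (SE 0.65, adjusted p = 0.448). It was called after the GC correction (-1.28, adjusted p = 0.0247), after that correction with the replicate block (-1.36, adjusted p = 0.0152) and with both libraries that stood apart left out (-1.02, adjusted p = 0.0417). With both left out Lrpap1 was also called (-0.55, adjusted p = 0.0486). The interaction of Lrp2 was -1.90 (95% confidence interval -3.84 to 0.05, adjusted p = 0.232), and that of Cubn -0.40 (adjusted p = 0.763).

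To compare levels between genes, CPM were divided by the exon length in kilobases. In the P6 jejunum the order was Mamdc4 (1207 ± 131 CPM per kb, SD, n = 4), Dab2 (174 ± 4.22), Amn (121 ± 21.3), Cubn (74.8 ± 8.68), Clcn5 (45.0 ± 8.13), Lrpap1 (15.2 ± 1.48) and Lrp2 (1.94 ± 0.498), and no neighbours in this order overlapped. Mamdc4 ranked 32nd of the 13429 tested genes per length there. In the P6 ileum Mamdc4 (1704 ± 973 CPM per kb) and Dab2 (263 ± 55.9) came first again, followed by Cubn (199 ± 53.0), Amn (142 ± 82.0), Clcn5 (61.3 ± 20.7), Lrpap1 (22.5 ± 7.33) and Lrp2 (7.36 ± 4.55), and only Clcn5 and Lrpap1 were neighbours without overlap. This order rested on replicate 4. Without it Amn (mean 181, range 153 to 213 CPM per kb, n = 3) averaged above Cubn (mean 174, range 156 to 192), the order was that of the P6 jejunum, and Amn and Cubn were the only neighbours that overlapped.

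At P36 the order per length was led by the receptor pair. In the P36 jejunum Amn was at 54.6 ± 9.37 CPM per kb and Cubn at 21.9 ± 5.32, followed by Clcn5 (8.58 ± 1.74) and Lrpap1 (7.01 ± 0.905), whose ranges overlapped. In the P36 ileum Cubn (44.2 ± 34.7) and Amn (35.1 ± 17.6) overlapped, as did Lrpap1 (8.76 ± 1.32) and Clcn5 (5.97 ± 2.21). Mamdc4, at 0.711 ± 0.399 (jejunum) and 0.547 ± 0.295 (ileum), overlapped with Dab2 at 0.236 ± 0.187 and 0.329 ± 0.169, in the ileum through replicate 3 alone. Lrp2 was last in both regions, at 0.0142 and 0.0171 CPM per kb, and did not overlap with Dab2.

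Ratios of 2 genes within a library do not depend on how libraries are scaled. Dab2 per length was 2.67, 2.12, 2.34 and 2.28 times Cubn in the P6 jejunum and 1.38, 1.47, 1.24 and 1.26 times Cubn in the P6 ileum, without overlap. At P36 the same ratio lay between 0.00360 and 0.0257 for jejunal and between 0.00385 and 0.0250 for ileal libraries. The adaptor was thus above cubilin per length in every P6 library and far below it in every P36 library. The log2 ratio at P36 minus that at P6 was -8.03 for jejunal and -7.10 for ileal libraries (p = 0.0286 each, two-sided exact permutation test, the smallest that 4 against 4 libraries allow; adjusted p = 0.0571 over 16 tests).

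Cubn to Amn, the ratio of the receptor to its membrane partner, was 0.433, 0.749, 0.585 and 0.795 in the P6 jejunum and 0.979, 1.02 and 0.898 in replicates 1 to 3 of the P6 ileum. It was 11.0 in replicate 4, the library in which Amn was low and Cubn high. In the P36 jejunum the ratio was tightly held at 0.444, 0.372, 0.395 and 0.381. The P36 ileum gave 1.53, 1.44 and 1.11 in replicates 1, 2 and 4 and 0.331 in replicate 3. The regional difference of the log2 ratio was -1.51 at P6 (p = 0.0286, adjusted p = 0.0571) and -1.26 at P36 (p = 0.143, adjusted p = 0.208, two-sided exact permutation tests). An exact sign-flip test over mice gave p = 0.125 at P6, the smallest that 4 mice allow, and p = 0.250 at P36. The difference at P6 was -0.63 without replicate 4, and that at P36 was -1.76 without replicate 3.

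Lrp2 was a minor receptor beside Cubn in every library. Its level per length was 0.0194 to 0.0318 of that of Cubn in the P6 jejunum and 0.0204 to 0.0509 in the P6 ileum, which overlap (p = 0.200, exact permutation test). At P36 it was at most 0.00140 of Cubn in any library. Relative to its chaperone Lrpap1, Lrp2 was at 0.0788 to 0.165 in the P6 jejunum and 0.145 to 0.226 in replicates 1 to 3 of the P6 ileum, with 1.17 in replicate 4. At P36 the highest ratio to Lrpap1 was 0.00466. None of the 16 ratio tests had an adjusted p below 0.05, although 8 of them reached the smallest p that 4 against 4 libraries allow.

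**Figure D5:**
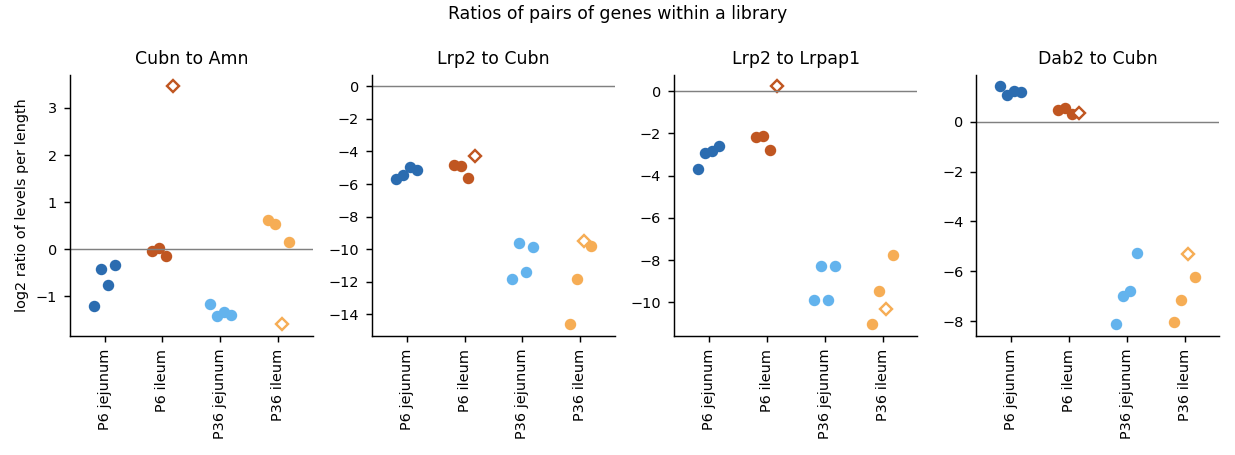
The vertical axis is the log2 ratio of 2 genes' levels per exon length within a library, with 4 libraries per group and open diamonds for P6 ileum replicate 4 and P36 ileum replicate 3. Dab2 to Cubn lies above 0 in all P6 libraries and at -5.28 or below in all P36 libraries, and Cubn to Amn sets replicate 4 of the P6 ileum apart at 3.46.

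Other genes of the pathway were read from lists compiled by hand. Among the transcription factor genes listed for suckling-type enterocytes, Prdm1, a repressor of the adult enterocyte programme, fell with age in both regions. It went from 204 ± 19.1 to 6.44 ± 1.53 CPM in the jejunum (log2 fold change -4.98, adjusted p = 6.37e-09) and from 302 ± 60.4 to 5.76 ± 3.27 CPM in the ileum (-5.72, adjusted p = 2.26e-09). The transcription factor gene Maf averaged between 270 and 336 CPM in all 4 groups and was not called.

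Among the 27 receptor-tail adaptors and endocytic partners, 8 were lower and 3 higher at P36 in the jejunum, and 9 were lower and 1 higher in the ileum. This makes 40.7% and 37.0% called, below the 51.6% and 55.7% of all tested genes that were called between the ages. The engulfment adaptor Gulp1 had the smallest adjusted p, with log2 fold changes of -5.98 (adjusted p = 5.42e-06) and -5.36 (adjusted p = 7.08e-06) from 9.96 and 13.6 CPM at P6. Dab1, the paralogue of Dab2, had P6 levels of 232 ± 14.3 (jejunum) and 168 ± 31.4 CPM (ileum) and P36 levels of 113 ± 7.27 and 80.4 ± 37.5 CPM (ileal log2 fold change -1.06, adjusted p = 0.00109). Called lower in both regions, jejunum first, were also Epn2 (-1.08 and -0.61), Ap2a2 (-1.02 and -0.62) and Ocrl, the phosphatase gene mutated in Lowe syndrome (-0.79 and -0.94). Fcho2 was called lower in the ileum (-1.14). Without P6 ileum replicate 4 the ileal counts were 11 lower and 5 higher. The median of the 27 log2 fold changes was -0.24 (jejunum) and -0.13 (ileum).

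Between the regions the adaptor list gave 5 called genes at P6, 3 toward the jejunum and 2 toward the ileum (18.5%, against 25.9% of all tested genes), and 1 and 2 at P36 (11.1%, against 16.1%). Without P6 ileum replicate 4 the P6 count was 9, with 6 toward the jejunum and 3 toward the ileum. Appl1, an endosomal adaptor that binds the megalin tail and Rab5, stood out at P6 with 59.6 ± 15.4 CPM in the ileum and 17.2 ± 2.56 CPM in the jejunum (log2 fold change -1.79, adjusted p = 1.46e-06). This regional gap was called as changing with age, with an interaction of -1.66 (adjusted p = 0.000296). Ap2a2 (0.70), Numb (0.69) and Eps15l1 (0.34) were higher in the P6 jejunum. At P36, Inpp5b (0.64) was called higher on the jejunal side, whereas Cltb (-0.68) and Epn2 (-0.50) were higher in the ileum.

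Of the 15 tested lipoprotein receptor family and sorting receptor genes, 7 were higher in the ileum and 1 in the jejunum at P6 (53.3%, against 25.9% of all tested genes), and 5 were higher in the ileum at P36 (33.3%, against 16.1%). The leading genes at P6 were Sorl1 (log2 fold change -1.21), Sort1 (-1.08), Lrp8 (-1.82) and Vldlr (-1.54), with adjusted p from 2.26e-05 to 0.000938. At P36 they included Sorcs2 (-1.71), Sort1 (-0.62) and Ldlrad3 (-1.88), the last not called without P36 ileum replicate 3 (-1.57, adjusted p = 0.0639), which left 3 of the 5 calls. With age 4 genes fell and 5 rose in the jejunum, and 6 fell and 3 rose in the ileum. The sorting receptor Sort1 rose (1.90 and 1.44, jejunum first) and Lrp4 fell (-1.16 and -1.27). Lrp12 (-1.19) and Lrp3 (-2.51) fell in the ileum, whereas Sorl1 (0.89) rose in the jejunum and Lrp6 (0.86 and 0.61) in both regions. Vldlr was the gene of this list called in the interaction (-1.34, adjusted p = 0.0476), a call lost without P36 ileum replicate 3 (-1.37, adjusted p = 0.0636). Without P6 ileum replicate 4 the interaction was called for Vldlr, Lrp5 and Sorl1. Neither Lrp1b nor Sorcs1 passed the filter.

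The 12 tested genes of vitamin B12 handling moved in both directions with age, 4 higher and 4 lower at P36 in the jejunum (66.7%) and 4 higher and 5 lower in the ileum (75.0%). Of all tested genes 51.6% and 55.7% were called between the ages. Abcc1, a transporter that exports B12 from cells, rose from 1.78 to 9.32 CPM in the jejunum (log2 fold change 2.38, adjusted p = 8.09e-08) and from 3.72 to 16.4 CPM in the ileum (2.14, adjusted p = 1.98e-07), and was higher in the ileum at both ages. Mtr, the methionine synthase that uses B12, fell in both regions (-1.36 and -1.25), as did Lmbrd1, which acts in lysosomal B12 export (-0.91 and -0.71). Mmab rose in both (0.81 and 0.59) and Mmaa in the ileum (0.74). At P6, Abcc1 (-1.06), Mut (-0.69), Mmab (-0.54) and Cd320 (-0.79), the receptor for transcobalamin-bound B12, were higher in the ileum. Mut was called in the interaction (-0.88, adjusted p = 0.0399). The files held 2 counts of Gif, which encodes intrinsic factor, in all 16 libraries together.

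The CLC family around Clcn5 was called with age for 6 of 7 tested genes in the jejunum (2 higher and 4 lower at P36) and 7 of 7 in the ileum (3 higher and 4 lower), where 51.6% and 55.7% of all tested genes were called. The lysosomal exchanger gene Clcn7 went from 171 to 33.4 CPM in the jejunum and from 155 to 34.0 CPM in the ileum, with log2 fold changes of -2.36 (adjusted p = 1.80e-07) and -2.19 (adjusted p = 4.00e-07). Its partner subunit Ostm1 (-1.78 and -1.94) and Clcn6, an exchanger of late endosomes (-5.55 and -4.77), fell as well. Clcn2, a plasma membrane chloride channel, moved the other way, from 38.5 to 281 CPM and from 20.7 to 190 CPM (log2 fold changes 2.86 and 3.20). Clcn1 had under 1 CPM in every library, was higher in the P6 jejunum (2.30, adjusted p = 0.000598) and was called in the interaction (2.23, adjusted p = 0.0155).

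Of the 10 tested genes of secreted ligands of cubilin and megalin, 5 fell with age in the jejunum (50.0%) and 6 in the ileum (60.0%), and none rose. Beside this, 51.6% and 55.7% of all tested genes were called between the ages, and 26.9% and 30.1% were called lower at P36. Without P36 ileum replicate 3 the ileal count was 7 lower and 1 higher. Ttr, the transthyretin gene, went from 289 to 1.57 CPM in the jejunum (log2 fold change -7.51, adjusted p = 7.76e-09) and from 108 to 2.81 CPM in the ileum (-5.24, adjusted p = 1.50e-07). Trf, which encodes transferrin (-5.15 and -6.39), Apob (-1.85 and -2.23), Apoa1 (-1.42 and -1.20) and Tcn2, which is also in the B12 list (-0.92 and -1.50), fell in both regions, and Lpl (-2.56) in the ileum. At P6, Apoa1 (1.85) and Ttr (1.43) were called toward the jejunum and Lpl (-2.95) toward the ileum, and at P36 Apoa1 was higher in the jejunum (1.63). Ttr was also called in the interaction (2.27, adjusted p = 0.0266), but not without P36 ileum replicate 3 (2.03, adjusted p = 0.0620). Alb, Gc and Plau did not pass the filter.

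The genes whose log2 CPM was most like each member over the 16 libraries were read among 8933 tested genes with a mean of at least 10 CPM. These are correlations over 16 libraries of 4 groups that share the same large age difference, and they are given as a description. Amn was most like Tcn2, the gene of the B12 carrier transcobalamin, with a Pearson's r of 0.990, followed by Entpd2 (0.978) and Wwc1 (0.965). All 3 were also low in P6 ileum replicate 4, and without that library r was 0.992 for Tcn2 and 0.976 for Entpd2, still the nearest, and 0.963 for Wwc1, then the 11th. Tcn2 averaged 972 CPM in the P6 jejunum, 1035 in the P6 ileum, and 516 and 367 CPM in the same regions at P36. Cubn was most like the lysosomal cholesterol transporter gene Npc1 (0.959), then Map3k9 (0.951) and Sash1 (0.947), and 2 genes exceeded an r of 0.95 with it. Without P36 ileum replicate 3 these 3 ranked 37th, 31st and 6th, and 14 genes exceeded 0.95. The genes that nearly vanished at P36 had many close neighbours instead, with 357 genes above 0.95 for Dab2, 311 for Mamdc4 and 254 for Lrp2, or 560, 555 and 412 without P6 ileum replicate 4.

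The nearest to Dab2 were Renbp (0.995), Aph1c (0.995) and Hif3a (0.994), those to Mamdc4 were Plod1 (0.996), Mfi2 (0.995) and Fuca1 (0.994), and those to Lrp2 were Enpp5 (0.989), Msrb3 (0.989) and Gpc3 (0.988). Mfi2, a transferrin family gene, had jejunal means of 5363 CPM at P6 and 1.21 CPM at P36, and the lysosomal fucosidase gene Fuca1 at 1542 and 254 CPM. Lrpap1 was most like Tpst2 (0.975), Mtss1 (0.972) and Card14 (0.968), with 21 genes above 0.95 or 112 without P6 ileum replicate 4. Clcn5 was most like Serinc5 (0.990), Fam21 (0.990) and Wdr7 (0.990), with 188 genes above 0.95 or 311 without that library.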

How the data were processed

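RNA of EDTA-released epithelium was sequenced as stranded mRNA libraries. Per the labels, reads were trimmed with Trimmomatic 0.38 and mapped to mm10 with STAR 2.5.3, and the authors counted read pairs over exons per gene with featureCounts (Subread 1.6.3). The deposited files hold these raw counts for 24421 genes, 1 file a library, with exon lengths. Total counts of 12159237 to 25947276 set the precision of low genes.

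Libraries were grouped by age and region from their titles. Counts of all 16 libraries were fitted in edgeR 4.0.16 (R 4.3.3, quasi-likelihood F test, TMM factors, filterByExpr, 4 group means), with Benjamini-Hochberg adjustment over the 13429 genes tested, and a gene was called at an adjusted p below 0.05. Every adjusted p of a log2 fold change or interaction comes from this fit or the alternative named beside it. The fits were tested on simulated data. Log2 CPM used a prior count of 2. Ratios of levels per exon length were compared by exact permutation tests. The authors' cut of an absolute log2 fold change above 2 was the second rule.

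The jejunum and the ileum of a mouse carry the same mouse number in the titles, which pairs them. Deviations from the group means correlated between the regions of a mouse at 0.157 to 0.391 at P6 and 0.240 to 0.347 at P36. Between libraries of different mice they lay at -0.284 to 0.120 at P6 and -0.367 to 0.232 at P36. Subtracting the group means by itself pulls these latter values below 0 on average. The mouse was used as a block in an alternative fit. The numbers of the P6 mice share a prefix between replicates 1 and 3 and between replicates 2 and 4, and the labels do not say what it marks. In the P6 jejunum the chi-square per gene between libraries was 16.0 and 11.0 within these pairs and 28.2 to 37.5 otherwise. The P6 ileum did not repeat this, with 16.8 for replicates 1 and 3, 223 for replicates 2 and 4, and 34.3 to 225 otherwise. In the P36 jejunum the values lay between 11.9 and 26.8. The 4 P6 mice were fitted as independent, so p-values may be too small if the prefix marks a shared origin.

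The 7 genes, the pathway lists and the marker lists were chosen with earlier results of these data known. Named were all 7 genes, up to 4 called genes per list and comparison by smallest adjusted p, list genes at 0 in all libraries, and the 3 tested genes most correlated with each of the 7; some list genes that the rule names are not reported here. Alternatives were other normalisation factors, DESeq2 1.42.0, other filters, sex as a covariate, a robust prior, fits on the 8 libraries compared, and each library left out. The GC correction and the joint omission of the libraries that stood apart were chosen after seeing the data. The correction was a loess of each gene's deviation on GC content (span 0.3). It was fitted on 8663 genes with a mean log2 CPM above 3 and applied to the 12948 tested genes with a GC content. The Dab2 knockout and single-cell data of the same study were not analysed here.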

Additional observations from a re-analysis of the deposited data

Results flagged for a closer look

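Dab2 in the P6 ileum was flagged because a single library stood far from the other 3. Replicate 4 read 1605 CPM, and replicates 1 to 3 lay between 1056 and 1116 CPM. The same library set the Cubn to Amn ratio of the P6 ileum apart, at a log2 ratio of 3.46 against -0.16 to 0.03 in the other 3. It is the library whose deviations followed GC content, and the part of that trend in these values was not tested. For 44 groups of 4 libraries examined in this way, 2 were flagged, and chance alone flags about 1 group in 20.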

How the results depend on the processing

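Between the ages in the ileum all 7 genes were called in every alternative but the rule of an absolute log2 fold change above 2, which left 6. In the jejunum that rule left 4 genes, and each omission of 1 library left 6 of 7, the lost gene being Amn. Between the regions at P6, where 2 genes were called, library totals alone gave 4, no filter on low counts 1, sex as a covariate 1, the fold rule 0, the mouse as replicate block 1 and both libraries that stood apart left out 5. Omitting 1 library gave 1 to 2. Between the regions at P36, where 0 were called, both libraries left out gave 1 (Cubn), the GC correction with the mouse as replicate block 2 (Amn and Clcn5), and omitting 1 library 0 to 1. For the interaction, also at 0, library totals alone gave 1 (Clcn5), the GC correction 1 (Amn), both libraries left out 2, the GC correction with the replicate block 2 (Amn and Clcn5), and omitting 1 library 0 to 1. The cause of these changes was not tested, and the share of all tested genes called was not counted under the alternatives. Apart from Cubn at P6, the replicate block alone changed no call of the 7 genes. DESeq2 called 2, 0, 7, 7 and 0 genes in the order regions at P6, regions at P36, ages in the jejunum, ages in the ileum and interaction. No called gene changed sign in any alternative. Of the 73 tested pathway list genes, the fold rule left 2 of 22 between the regions at P6, 0 of 11 at P36, 9 of 40 between jejunal and 13 of 42 between ileal ages, and 2 of 5 in the interaction. The last count was 9 without P6 ileum replicate 4 and 3 without P36 ileum replicate 3. Depth limits Lrp2 at P36, at 1 to 9 counts a library, and the ratio tests could not give a p below 0.0286.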

Other observations

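The macrophage marker list (8 genes) summed to 423 to 514 CPM in the P6 jejunum and 169 to 380 CPM in the P6 ileum, against 5.25 to 17.3 CPM at P36. Nearly all of it was 1 gene, Csf1r, the receptor for a macrophage growth factor, singled out after its values were seen. Csf1r lay at 415 to 498 CPM in the P6 jejunum and at 152 to 333 CPM in the P6 ileum, and at no more than 3.55 CPM in any P36 library. Of the other 7 macrophage genes, Adgre1, C1qa, C1qb, C1qc and Cx3cr1 stayed at or below 4.78 CPM in all 16 libraries, Mrc1 reached 8.46 CPM and Cd68 reached 25.0 CPM. Secretory epithelial genes (5 genes) summed to 455 to 1462 CPM at P6 and 5247 to 13209 CPM at P36. B cell genes (4 genes) reached 35.8 CPM and nerve and glia genes (4 genes) 19.6 CPM at most.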
